A study of Mus musculus with 54 samples.

Results

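H2K mouse myogenic progenitors that lack emerin and had received wildtype emerin from a lentivirus, called +EMD here, were compared with themselves between day 1 and day 2 of differentiation. The members are all 17684 genes of the deposited table of both days, out of 19653 genes listed over the 27 tables of the series. RNA of 6 libraries enters the table, 3 from day 1 (24 h in differentiation medium) and 3 from day 2 (48 h), out of 54 libraries in 18 groups. The other groups used here are +EMD at day 0 (0 h), wildtype H2K progenitors, and the emerin-null EMD-/y line, with EMD-/y lines transduced with the disease variants S54F, Δ95–99, or Q133H beside them. All cells were grown on gelatin with serum and γ-interferon before the switch to medium with horse serum. The transduced cells were selected in puromycin and expanded in it. The sources give puromycin in both media and a higher seeding number for the mutant lines, and do not say by name whether these applied to +EMD. Emerin expression, transduction, selection, and culture history therefore cannot be told apart in any comparison of +EMD with wildtype. The sources give 2 biological replicates with 3 technical replicates each, and do not say which kind the 3 labelled replicates of a group are.

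Emerin is a protein of the inner nuclear membrane whose loss causes Emery-Dreifuss muscular dystrophy, and H2K cells carry a temperature-sensitive, interferon-inducible T antigen that keeps them cycling until it is withdrawn. During differentiation, MyoD and myogenin turn on contractile genes while the progenitors leave the cell cycle, and the committed myocytes then fuse into myotubes. The step from day 1 to day 2 covers the commitment of myocytes and the start of fusion.

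Each gene has 1 value per day, a group value in normalized counts that the authors fitted from the 6 libraries. Values per library were not analysed here. No spread between replicates, no test, and no p-value can therefore be given, and every difference below is a description of 2 group values. A difference is log2 of the day 2 value plus 1 over the day 1 value plus 1, and folds are on the same scale, which understates the difference of genes with low values. Genes whose higher value was at least 10 were kept, and those that differed by at least 2-fold are called past 2-fold. The group values summed to 17144437 normalized counts at day 1 and 20302141 at day 2, and the scaling factors of the 6 libraries that could be read from the lowest values lay between 0.904 and 1.12. The 10 genes with the highest values took 5.86% of the sum at day 1 and 8.76% at day 2.

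The Emd transcript was examined first. Its group value in +EMD was 0.512 at day 1 and 0.458 at day 2, against 1632 and 1075 in wildtype progenitors on the same days. Whether reads of the lentiviral transcript would count toward this row is not given in the sources used here, so that it does not show the added emerin and cannot check the label. The cells carried markers of skeletal myogenic cells. Myod1, the factor that commits cells to muscle, stood at 17198 and 24759 normalized counts, and Cdh15, the cadherin of satellite cells and myoblasts, at 9982 and 18462. Des, the muscle intermediate filament, stood at 22397 and 49568, and Tnnt3, a fast troponin T, at 6981 and 39993. Markers of other cell types were mostly low in value, and 24 of the 39 listed in the table passed the filter. Of these 24, 12 were past 2-fold higher and 3 lower at day 2, with a median log2 difference of 0.95. Over all genes past the filter, 11% were higher and 9.53% lower, so that a larger share of these markers was higher. The 8 fibroblast markers summed to 312 and 498 normalized counts, of which Ly6a gave 289 and 453, while Thy1, Pi16, Dpp4, and Lum stayed under 3. The 6 macrophage markers summed to 130 and 193, with Itgam at 12.4 and 134 and Ptprc, Csf1r, and Lyz2 under 3. The 5 endothelial markers summed to 48.1 and 76.4, and Lpl, at 98.6 and 235, led the 4 adipocyte markers, of which Fabp4 stayed under 1. Erbb3, which muscle cells also express, gave nearly the whole of the 5 Schwann cell markers, 2003 of 2034 and 9004 of 9035, with S100b under 1. The 5 tendon and cartilage markers summed to 1355 and 3238, mostly Scx and Sox9, with Tnmd under 1. The 6 smooth muscle markers summed to 31423 and 87623, mostly Acta2, an actin that early skeletal muscle also expresses, while Myh11, the smooth muscle myosin, stood at 5.43 and 25.7. The part of other cells in the results below was not tested. Fewer cells of a kind and less RNA per cell cannot be told apart in such bulk samples.

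Among 13301 genes past the filter, 2730 (20.5%) were past 2-fold between the days, with 1463 (11%) higher and 1267 (9.53%) lower at day 2. The directions differed in size. At least 4-fold, 542 genes were higher and 47 lower, and at least 8-fold, 169 were higher and 3 lower. The genes past 2-fold and higher took 6.69% of all normalized counts at day 1 and 20.5% at day 2, and those lower took 7.92% and 2.69%. This balance depends on the scaling. With both days rescaled to the same sum, which shifts every log2 difference by -0.24, 1115 genes were higher and 2054 lower, so that 35.2% of the calls were higher against 53.6% as deposited. Of the genes past 2-fold, 137 of those higher and 79 of those lower carry only the sequencing provider's ID for genes outside the annotation.

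**Figure D1:**
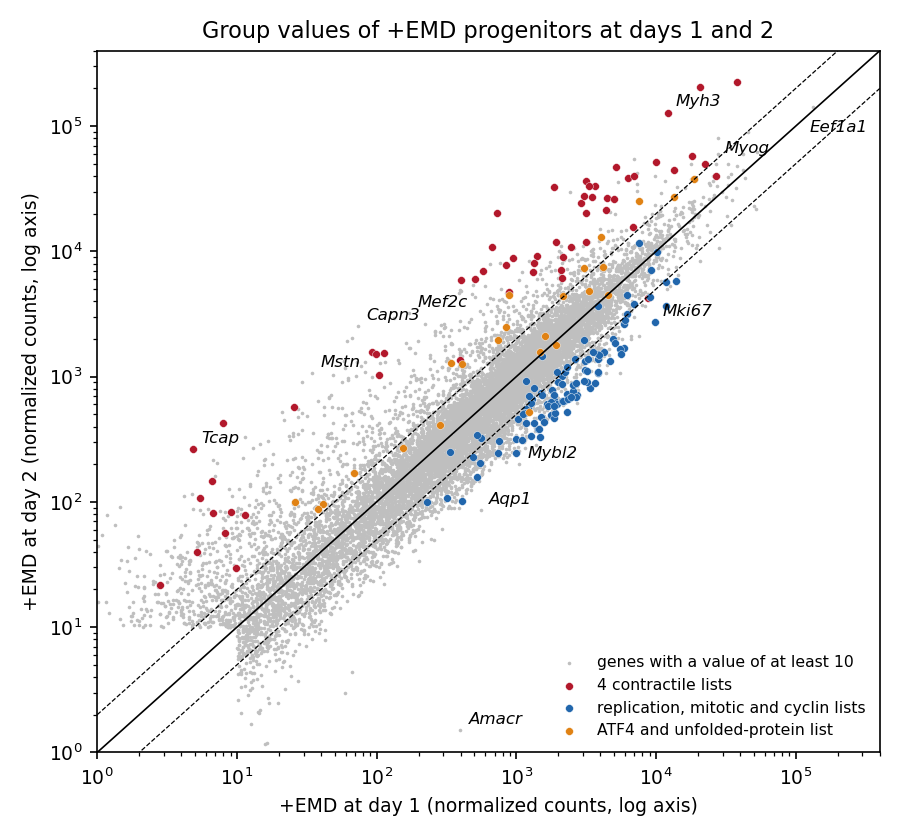
Each point is a gene of the +EMD progenitors with a value of at least 10 on either day, with its day 1 value on the horizontal and its day 2 value on the vertical axis, both in normalized counts on log axes. The solid line marks equal values and the dashed lines 2-fold. The contractile genes (red) lie above the upper dashed line with 1 exception below the lower line and 1 between the lines, and most replication, mitotic, and cyclin genes (blue) lie below the lower one.

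Among named genes with a value of at least 100, the 10 most higher at day 2 included several muscle genes. Myh4, a fast adult myosin heavy chain, went from 7.96 to 423 normalized counts, or 47.4-fold, and Tcap, the titin cap protein of the Z-disc, from 4.85 to 264, or 45.3-fold. Capn3, the muscle calpain whose loss causes a limb-girdle dystrophy, stood at 73.5 and 2523, which is 33.9-fold higher. Itgb1bp2, the muscle chaperone melusin, stood at 61.1 and 1910. All 4 had day 1 values under 100. Mstn, the secreted inhibitor of muscle growth myostatin, was 30.1-fold higher, from 34.6 to 1073. Myh7, the slow and cardiac myosin heavy chain, was 28.1-fold higher at a far higher level, from 722 to 20348. Casq1, the calsequestrin of fast fibres, Ankrd23, Atp13a5, and Dlg2 complete the 10, at between 26.8-fold and 29.9-fold.

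The 10 most lower were chosen by the same limit. Amacr, an enzyme of branched-chain fatty acid breakdown, stood apart, with 397 normalized counts at day 1 and 1.52 at day 2. The next under this limit was Aqp1, a water channel, from 557 to 86.1, or 6.41-fold lower. Amacr was also 76.1-fold lower at day 2 than at day 1 in EMD-/y progenitors and 5.01-fold lower in wildtype, while its log2 difference was -1.40 in S54F, -1.04 in Δ95–99, and 0.19 in Q133H. Its wildtype value at day 2 was 63.3 in the table of wildtype days and 11.8 in the table of wildtype and +EMD at day 2, so that the wildtype value of Amacr moved by over 5-fold with the libraries fitted together, while its +EMD value at day 2 was 1.52 and 1.62. Among the 10 were Mybl2 and Myb, transcription factors of proliferating cells, at 5.18-fold and 4.96-fold, and E2f7, a repressor of the E2F family, at 4.85-fold. Hmga1, a chromatin protein abundant in growing cells, went from 5494 to 1079. The rest were Rab3b, Scn9a, Rnf144a, and Rasl11a, at between 4.47-fold and 5.82-fold lower.

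Among the muscle transcription factors, Myod1 was 1.44-fold higher at day 2. Myog, the factor that drives terminal differentiation, went from 27037 to 49992 normalized counts, or 1.85-fold. Myf5, a factor of early progenitors, was 1.91-fold lower, from 953 to 499. Only Myf6, the factor of late muscle, passed 2-fold, from 7.16 to 30.3, and its level stayed far under the others. Mef2 factors work with the MyoD family on muscle promoters, and 2 of the 3 that passed the filter were past 2-fold. Mef2c stood at 171 and 3198, which is 18.5-fold higher, and Mef2d at 2915 and 7163, or 2.46-fold. Mef2a was 1.80-fold higher, from 10653 to 19209. Of 16 progenitor factors and antagonists of MyoD past the filter, none was past 2-fold higher and 4 were lower. The shares over all genes past the filter were 11% higher and 9.53% lower. After rescaling both days to the same sum, 6 of the 16 were lower. Pax7, the satellite cell factor, stood at 1865 and 779, and Twist2, an inhibitor of MyoD, at 262 and 84.3. Id1, which binds the partners of MyoD, stood at 781 and 870.

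The contractile lists had the largest medians of the lists with at least 5 genes past the filter. These 4 lists hold 58 genes past the filter, of which 56 were past 2-fold higher and 1 lower, with a median log2 difference of 2.70 against -0.0018 over all genes past the filter. They took 1.51% of all normalized counts at day 1 and 6.999% at day 2. All 9 sarcomeric myosin heavy chains were past 2-fold higher, with a median log2 difference of 3.52. Myh3, the embryonic chain, stood at 12114 and 128188 normalized counts, and Myh8, the perinatal chain, at 1848 and 32914. Myh1, a fast adult chain, stood at 3170 and 36353. Myh2, another fast adult chain, stood at 2.82 and 21.6. Coding sequences of these chains are alike, as are those of the actins below, and how reads shared between such genes were counted is not given in the sources used here.

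All 5 myosin light chains past the filter were past 2-fold higher, at between 6.14-fold and 9.23-fold. Mylpf, the fast regulatory chain, stood at 6331 and 38894 and Myl4, the embryonic chain, at 3683 and 33428. Of 10 troponins and tropomyosins, 8 were past 2-fold higher. Tnnc1, the slow and cardiac troponin C, went from 3342 to 33293, and Tnni1, the slow troponin I, from 2921 to 24443. Among the tropomyosins, Tpm2 was 3.21-fold higher, Tpm1 went from 26873 to 40200, under 2-fold, and Tpm3 was 2.07-fold lower, from 8802 to 4259. All 34 genes of sarcomere assembly and the Z-disc were past 2-fold higher, with a median of 2.70. Acta1, the skeletal actin, stood at 20771 and 204679, and Actc1, the cardiac actin of developing muscle, at 37952 and 226868. Per kilobase of gene length, Actc1 and Acta1 were the highest of all named genes at day 2, with 155283 and 138203 normalized counts per kb, and Mylpf, Myl1, Tnnc1, Tnnt3, and Myl4 were also among the 10. The least different members were Des, at 2.21-fold, and Cryab, a small heat shock protein.

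**Figure D2:**
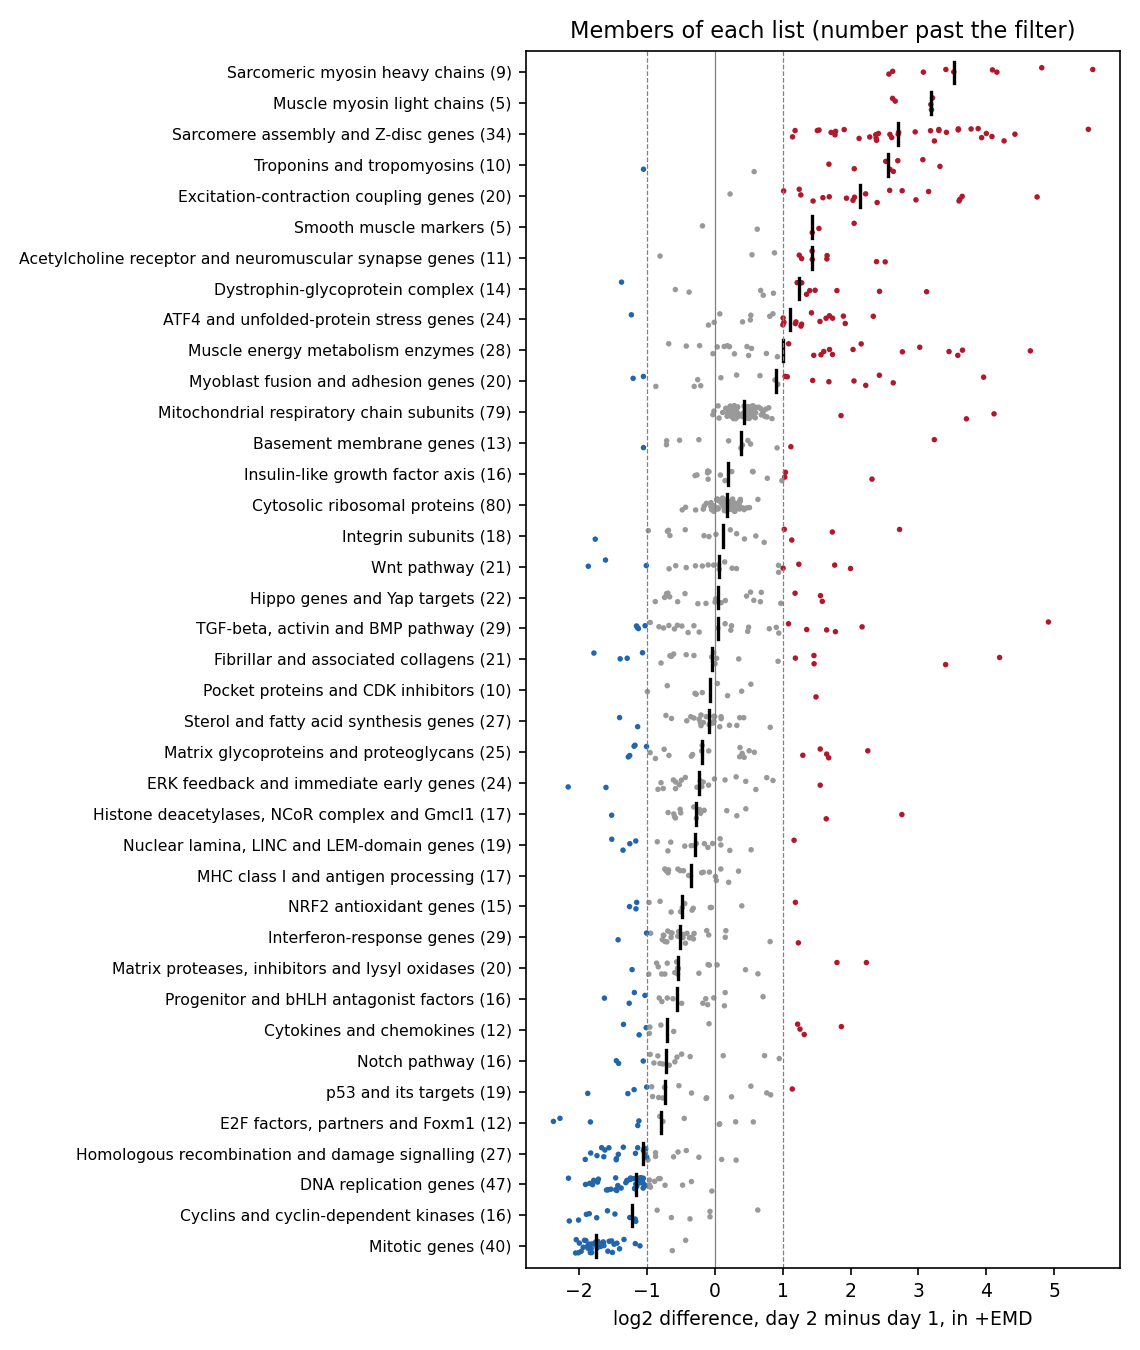
Each point is a member of the list named at the left with a value of at least 10, placed at its log2 difference between day 2 and day 1 in +EMD. Lists with at least 5 such members are ordered by their median (black bar), and the number of members stands in brackets. Red and blue mark members past 2-fold, and the medians run from 3.52 for the myosin heavy chains to -1.74 for the mitotic genes.

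Most genes of calcium handling and of the neuromuscular synapse were past 2-fold higher as well. Of 20 genes of excitation-contraction coupling, which links the membrane potential to calcium release, 19 were past 2-fold higher, with a median of 2.14. Casq2, the calsequestrin of slow and cardiac muscle, stood at 2440 and 29795, and Cacna1s, the pore of the skeletal calcium channel, at 396 and 4963. Only Asph stayed within 2-fold. At the neuromuscular synapse, 8 of 11 genes were past 2-fold higher. Chrna1 and Chrng, the alpha and the fetal gamma subunits of the acetylcholine receptor, stood at 11659 and 36721 and at 1319 and 6886. Agrn, which clusters the receptor, lay at 1220 and 698. In the dystrophin-glycoprotein complex, 8 of 14 genes were past 2-fold higher and 1 lower, the latter Dtnb, a dystrobrevin, at 264 and 102.

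Fusion genes were less uniform, with 9 of 20 past 2-fold higher, 2 lower, and a median of 0.91. The share lower is near the 9.53% over all genes past the filter, of which 11% were higher. Mymk and Mymx, the membrane proteins that fuse myoblasts, are both among those higher, Mymk with 7372 and 34445 normalized counts and Mymx with 819 and 2227. Cav3, the muscle caveolin, had the largest difference of the list, at 56.9 and 899, and Dysf, the membrane repair protein dysferlin, stood at 755 and 4059. Adgrb1, at low values of 16.8 and 6.76, and Ehd2 were the members past 2-fold lower, and 1 member was lower with a pseudocount of 5. Of 28 enzymes of muscle energy metabolism, 14 were past 2-fold higher and none lower. Ckm, the muscle creatine kinase, went from 392 to 4692, and Ampd1, the muscle AMP deaminase, from 7.22 to 205. Pkm, a pyruvate kinase, stood at 37457 and 32129, and Slc2a1, a glucose transporter, at 1559 and 975. Mitochondrial respiratory chain subunits had a median of 0.43, and the muscle isoforms Cox6a2 and Cox8b, at 17.3-fold and 13.0-fold, made up 2 of the 3 past 2-fold among 79.

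Promoters of these genes were searched, because MyoD proteins bind the E-box and Mef2 factors an A/T-rich element. The letters CAGCTG or CACCTG (E-boxes) and CTA followed by any 4 bases and TAG (the Mef2 element) were sought on both strands in the 300 bases from 250 before to 50 after the first start listed for a gene by RefSeq on GRCm38.p6. CAGCTG was found in 23.1% of 993 promoters of genes past 2-fold higher, in 15.2% of the 10012 promoters of genes past the filter, in 37.5% of 48 promoters of the contractile lists, and in 16.1% of all 27025 promoters of the RefSeq table. The same shares were 21.7%, 16.8%, 31.3%, and 20.0% for CACCTG and 4.93%, 2.99%, 16.7%, and 3.70% for the Mef2 element. In 918 promoters of genes past 2-fold lower, the shares were 16.7% for CAGCTG, 18.7% for CACCTG, and 2.83% for the Mef2 element. At least 4-fold, CAGCTG was found in 29.2% of 373 promoters of genes higher and in 34.6% of 26 promoters of genes lower. A match is a description of letters in this window. The promoters of 4 genes past 2-fold higher are printed to show an E-box, with or without a Mef2 element, and they were chosen after the values were seen. Capitals mark any of the motifs searched, those for cell cycle genes given below included.
Chrna1, chr2:73580289-73580588, minus strand: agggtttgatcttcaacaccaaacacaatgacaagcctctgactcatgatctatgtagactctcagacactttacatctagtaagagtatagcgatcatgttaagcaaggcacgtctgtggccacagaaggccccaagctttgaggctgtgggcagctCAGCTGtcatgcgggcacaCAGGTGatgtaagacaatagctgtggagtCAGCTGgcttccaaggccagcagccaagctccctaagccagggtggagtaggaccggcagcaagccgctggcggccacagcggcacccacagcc
Chrng, chr1:87205561-87205860, plus strand: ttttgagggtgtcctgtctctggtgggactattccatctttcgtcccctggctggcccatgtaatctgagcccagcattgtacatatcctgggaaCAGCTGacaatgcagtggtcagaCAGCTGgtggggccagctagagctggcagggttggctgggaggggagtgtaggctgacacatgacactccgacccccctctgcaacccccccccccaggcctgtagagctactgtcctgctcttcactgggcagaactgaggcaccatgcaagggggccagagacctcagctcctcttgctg
Des, chr1:75360042-75360341, plus strand: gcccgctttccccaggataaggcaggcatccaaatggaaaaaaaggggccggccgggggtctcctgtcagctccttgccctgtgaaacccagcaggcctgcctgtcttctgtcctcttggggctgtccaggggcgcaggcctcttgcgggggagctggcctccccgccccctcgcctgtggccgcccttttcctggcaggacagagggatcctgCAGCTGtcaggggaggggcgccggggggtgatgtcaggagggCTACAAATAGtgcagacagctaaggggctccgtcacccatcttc
Capn3, chr2:120463343-120463642, plus strand: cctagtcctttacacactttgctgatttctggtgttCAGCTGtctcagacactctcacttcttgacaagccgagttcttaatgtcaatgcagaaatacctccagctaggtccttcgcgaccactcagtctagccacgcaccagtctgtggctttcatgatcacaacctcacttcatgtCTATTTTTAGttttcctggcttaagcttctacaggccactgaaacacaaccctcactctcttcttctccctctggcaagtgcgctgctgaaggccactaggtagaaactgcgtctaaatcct
Chrna1 and Chrng each hold 2 copies of CAGCTG, and Chrna1 has CACCTG once more on the other strand. Des and Capn3 hold 1 copy of CAGCTG and 1 Mef2 element each.

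Most genes of the mitotic and replication lists were past 2-fold lower at day 2. Of 40 mitotic genes, 38 were past 2-fold lower and none higher, with a median of -1.74, or 3.34-fold. The members lay close together, with the largest difference at 4.13-fold. Cenpe, a kinetochore motor, stood at 3376 and 816 normalized counts, Cdc20, an activator of the anaphase-promoting complex, at 3661 and 891, and Ttk, a checkpoint kinase, at 987 and 245. Mki67, the proliferation antigen Ki-67, went from 9765 to 2718. Of 47 replication genes, 36 were past 2-fold lower, with a median of -1.16. Tk1, the thymidine kinase of S phase, differed most, from 1477 to 332, and Cdc6, which loads the replicative helicase, stood at 1766 and 493. Rrm1, the large subunit of ribonucleotide reductase, was nearly level at 10243 and 9953.

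Of 16 cyclins and cyclin-dependent kinases, 10 were past 2-fold lower. Ccna2, the cyclin of S and G2 phase, stood at 5609 and 1515, and Ccnf at 2293 and 519. Ccnd3, the D cyclin of differentiating muscle, lay at 7550 and 11724. Of 27 genes of homologous recombination and damage signalling, 18 were past 2-fold lower, among them Exo1, a nuclease, at 859 and 229, and Bard1, the partner of Brca1, 3.54-fold lower. In the E2F list, 5 of 12 were past 2-fold lower, including E2f7, Mybl2, and Foxm1, a factor of mitotic genes, at 2773 and 780. E2f2 and E2f4 were 1.48-fold and 1.24-fold higher. None of the 10 pocket proteins and CDK inhibitors was past 2-fold lower, and 1 was higher, Cdkn1c, the inhibitor p57, which went from 17821 to 50124. In so short a list, these counts are near the shares over all genes past the filter, 11% higher and 9.53% lower. After rescaling both days to the same sum, 1 of the 10 was lower. Cdkn1a, the inhibitor p21, stood at 27444 and 39722, and Rb1, the retinoblastoma protein, at 6716 and 8848.

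Cell cycle promoters often hold the CCAAT box, read by NF-Y, the CHR element with the letters TTTGAA, and an E2F element, searched as TTNNCGC. The CCAAT box was found on either strand in 67.1% of 82 promoters of the replication, mitotic, and cyclin lists, in 38.9% of promoters of genes past the filter, and in 37.9% of all promoters. The CHR element was found in 39.0%, 11.6%, and 18.1% of these sets, and the E2F element in 64.6%, 33.5%, and 20.5%. Over all 918 promoters of genes past 2-fold lower, the shares were 41.9%, 18.3%, and 40.3% in the same order. The next 4 promoters, also chosen after the values were seen, show these elements in a cyclin, an anaphase activator, the Ki-67 antigen, and an E2F repressor.
Ccnb2, chr9:70421505-70421804, minus strand: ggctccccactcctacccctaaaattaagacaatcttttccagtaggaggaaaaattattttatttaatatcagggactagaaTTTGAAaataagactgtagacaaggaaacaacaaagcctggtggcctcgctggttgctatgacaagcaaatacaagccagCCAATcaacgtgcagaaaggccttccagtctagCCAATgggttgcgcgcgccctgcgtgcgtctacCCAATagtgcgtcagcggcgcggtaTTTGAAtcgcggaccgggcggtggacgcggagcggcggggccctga
Cdc20, chr4:118437294-118437593, minus strand: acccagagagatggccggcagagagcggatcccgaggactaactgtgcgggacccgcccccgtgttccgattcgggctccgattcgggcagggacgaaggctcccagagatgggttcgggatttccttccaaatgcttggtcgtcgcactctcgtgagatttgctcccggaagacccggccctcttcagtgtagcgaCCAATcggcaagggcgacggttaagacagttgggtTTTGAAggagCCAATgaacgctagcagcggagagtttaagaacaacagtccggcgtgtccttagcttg
Mki67, chr7:135716330-135716629, minus strand: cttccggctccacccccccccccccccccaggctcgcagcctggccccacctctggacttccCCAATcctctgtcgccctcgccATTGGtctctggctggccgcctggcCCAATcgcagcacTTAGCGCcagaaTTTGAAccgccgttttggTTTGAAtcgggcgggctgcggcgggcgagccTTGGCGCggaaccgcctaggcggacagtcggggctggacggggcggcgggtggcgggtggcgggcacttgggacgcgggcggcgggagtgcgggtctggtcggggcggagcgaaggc
E2f7, chr10:110745189-110745488, plus strand: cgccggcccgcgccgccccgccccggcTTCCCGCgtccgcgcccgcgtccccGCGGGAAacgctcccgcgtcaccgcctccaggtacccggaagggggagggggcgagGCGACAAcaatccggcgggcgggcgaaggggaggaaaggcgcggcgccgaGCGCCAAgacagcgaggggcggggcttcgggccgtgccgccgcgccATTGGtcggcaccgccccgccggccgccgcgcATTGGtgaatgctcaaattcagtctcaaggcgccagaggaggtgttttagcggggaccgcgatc
Ccnb2 holds 3 copies of CCAAT and 2 of TTTGAA, and Cdc20 holds 2 and 1. Mki67 holds each of the elements, and E2f7 holds 4 E2F elements and 2 copies of CCAAT.

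Stress, matrix, and signalling genes differed in both directions. Over all genes past the filter, 11% were past 2-fold higher and 9.53% lower. The signalling lists together had 17 of 128 genes higher and 12 lower, which is near these shares. The matrix lists together had 18 of 97 higher and 12 lower. In the list of ATF4 and unfolded-protein stress genes, 15 of 24 were past 2-fold higher and 1 lower, with a median of 1.10. Herpud1, a protein of the degradation of misfolded proteins in the endoplasmic reticulum, stood at 884 and 4466 normalized counts, Sdf2l1 at 340 and 1291, and Atf3 at 25.9 and 99.2. Ddit4, an inhibitor of mTORC1, was the member past 2-fold lower, at 1224 and 523. From day 0 to day 1 the median of this list had been -0.51 in the table of those days, which uses the same day 1 libraries and in which 10.4% of genes were past 2-fold higher and 6.93% lower. The p53 list had a median of 1.97 from day 0 to day 1 and -0.74 from day 1 to day 2, with 1 of 19 past 2-fold higher, Gadd45a, and 4 lower. Trp53inp1 stood at 340 normalized counts at day 0 in the first table, and at 8297 and 3647 on the next days.

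Collagens, with 5 of 21 past 2-fold higher and 4 lower, had a median of -0.04, and Col25a1, a membrane collagen of muscle, stood at 52.6 and 564. Of 13 basement membrane genes, 2 were past 2-fold higher and 1 lower, Nid1, the linker protein nidogen, at 3489 and 1688. Adamts1, a matrix protease, stood at 739 and 3478. Of 18 integrin subunits, 4 were past 2-fold higher and 1 lower, with Itga9 at 57.4 and 385 and Itgb3 at 150 and 43.8. In the TGF-beta list, 6 of 29 were past 2-fold higher and 4 lower. Besides Mstn, Tgfb3 stood at 1714 and 7717. Among 22 Hippo genes and Yap targets, 3 were past 2-fold higher and none lower, namely Tead4, Ankrd1, and Ccn2. Over all genes past the filter, the shares were 11% and 9.53%. Of 16 Notch genes, 3 were lower and none higher, with the target Hey1 at 487 and 178. With both days rescaled to the same sum, 8 Notch genes were lower, the p53 list had 8 lower and none higher, and the stress list had 10 higher in place of 15. Interferon-response genes, which γ-interferon is known to induce, had a median of -1.02 from day 0 to day 1 and of -0.51 from day 1 to day 2. Of 29 of them, 2 were past 2-fold lower, Irf8 from 249 to 92.5 and Gbp3 from 405 to 202, and Ifit3 was higher. With a higher value of at least 100, no member was higher. With the +EMD values of the comparisons against wildtype, none was higher and 4 were lower. The medians of the integrin, TGF-beta, Hippo, and ribosomal lists lay between 0.05 and 0.18 and were below 0 with both days rescaled to the same sum, and those of the Wnt and insulin-like growth factor lists, at 0.06 and 0.20, also changed sign.

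No ribosomal protein among 80 and no gene of MHC class I and antigen processing among 17 was past 2-fold in either direction. Of 27 genes of sterol and fatty acid synthesis, 2 were lower, among them Elovl6, a fatty acid elongase, at 1361 and 620, and none was higher. The NRF2 antioxidant list had 3 of 15 lower and 1 higher, with Nqo1, a quinone reductase, at 820 and 344. Among 24 genes of ERK feedback and immediate early response, Etv4 and Fosl1 were lower, at 183 and 40.3 and at 1585 and 522, and Spry1, an inhibitor of the pathway, was higher, at 559 and 1644. Of 12 cytokines and chemokines, 4 were higher and 3 lower, and the most abundant of these, Csf1, the macrophage growth factor, stood at 4185 and 1650. Matrix glycoproteins and proteoglycans had 5 of 25 higher and 5 lower, with Fbln5, an elastic fibre protein, at 242 and 1156 and Vcan, the proteoglycan versican, at 12071 and 5002. Matrix proteases and their inhibitors had 2 of 20 higher and 1 lower. In the Wnt list, 4 of 21 were higher and 3 lower, with Wnt4 at 79.8 and 322 and Wnt5b at 36.3 and 9.27. The counts of these lists stand beside 11% higher and 9.53% lower over all genes past the filter. Of 16 genes of the insulin-like growth factor axis, 3 were higher, among them Igf1 itself at 816 and 1669, and none lower.

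Emerin binds lamins and other proteins of the nuclear envelope, and 19 members of this list passed the filter. Of these, 1 was past 2-fold higher and 4 lower, against 11% and 9.53% over all genes past the filter. Syne1, which codes for nesprin-1, stood at 1637 and 3682 normalized counts, and Syne2, for nesprin-2, at 1167 and 408. Lbr, the lamin B receptor, lay at 2310 and 907, and Nrm, the envelope protein nurim, at 345 and 145. Among 17 histone deacetylases, NCoR complex members, and Gmcl1, Hdac9 and Hdac11 were past 2-fold higher, at 47.0 and 323 and at 415 and 1298, and Hdac7 was lower, at 742 and 259. Hdac3 and the NCoR genes, whose products bind emerin, stayed within 2-fold.

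The same step was then set beside that of wildtype and EMD-/y progenitors, whose tables share no library with +EMD. Each table was normalized separately, and no difference between them could be tested. In wildtype, 2642 of 13268 genes (19.9%) were past 2-fold, 1063 (8.01%) higher and 1579 (11.9%) lower. Among 12779 genes past the filter in both tables, 646 were past 2-fold higher in both lines, which is 48.0% of such genes in +EMD and 67.6% of those in wildtype. A total of 795 were lower in both, 68.1% and 53.8% of each. Opposite calls were few, at 16 genes higher in +EMD and lower in wildtype and 5 the other way. The contractile lists had larger median differences in +EMD than in wildtype, with medians of 3.52 and 2.36 for the myosin heavy chains, 3.18 and 2.03 for the light chains, 2.55 and 1.70 for troponins and tropomyosins, and 2.70 and 1.67 for sarcomere assembly. EMD-/y lay near wildtype in these lists, between 1.51 and 1.93. Fusion genes had a median of 0.91 in +EMD, 0.11 in wildtype, and 0.15 in EMD-/y.

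**Figure D3:**
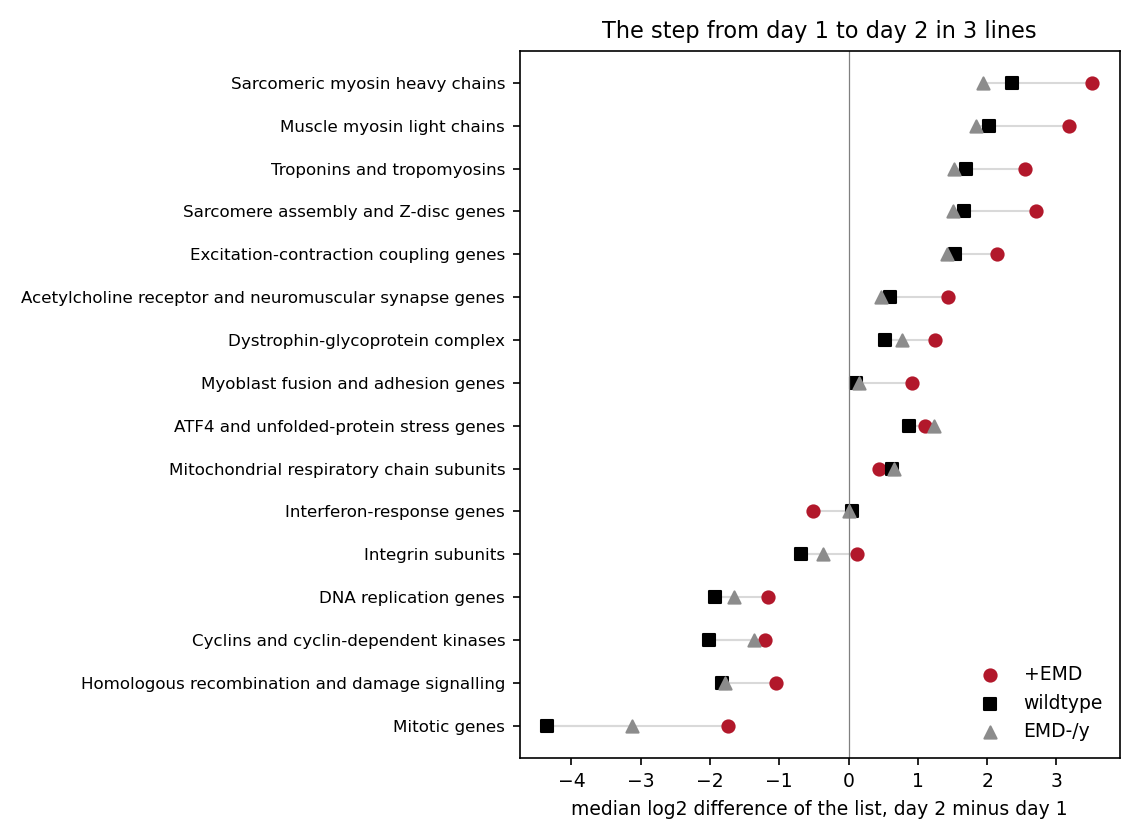
The horizontal axis gives the median log2 difference between day 2 and day 1 over the members of each list, for +EMD (circles), wildtype (squares), and EMD-/y (triangles), each from its own table and over the members past the filter in +EMD. The +EMD medians lie to the right of both other lines for the contractile lists, and nearer to 0 than both for the replication and mitotic lists.

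The mitotic and replication lists had medians nearer to 0 in +EMD than in wildtype, while the E2F list had medians of -0.78 and -0.73 in these lines. The median of the mitotic genes was -1.74 in +EMD, -4.35 in wildtype, and -3.13 in EMD-/y, which is 3.34-fold lower at day 2 in +EMD and 20.4-fold in wildtype. All 40 mitotic genes were past 2-fold lower in wildtype, where 39 of 47 replication genes were. The replication genes had medians of -1.16, -1.93, and -1.66 in +EMD, wildtype, and EMD-/y. Mki67 went from 3977 to 74.6 normalized counts in wildtype, 52.6-fold, against 3.59-fold in +EMD and 10.2-fold in EMD-/y. Ccna2 went from 2669 to 65.9 in wildtype, or 39.9-fold, against 3.70-fold in +EMD.

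The lines that carried a disease variant were also transduced and selected, though at other doses of puromycin than +EMD, and their libraries are also separate. The mitotic median was -3.48 in S54F, -1.76 in Δ95–99, and -2.04 in Q133H, so that the median of +EMD lay next to those of Δ95–99 and Q133H. The median of the sarcomere assembly list was 2.28, 3.80, and 2.39 in the same order, against 2.70 in +EMD. Of the genes past 2-fold higher in +EMD and past the filter in both tables, 46.0% were shared with EMD-/y. The shares with the S54F, Δ95–99, and Q133H lines were 69.6%, 70.3%, and 43.3%. These shared genes made up 68.2%, 82.96%, 79.5%, and 64.0% of those higher in the other line. Of the genes lower in +EMD, the shares were 65.6%, 75.6%, 42.9%, and 31.3% in that order, which is 56.7%, 64.8%, 81.3%, and 70.4% of those lower there. The lines differ in how many genes were past 2-fold, and this bears on each share. Higher and lower at day 2 were 9.39% and 11.1% of genes in S54F, 8.95% and 5.24% in Δ95–99, 6.33% and 4.44% in Q133H, and 7.61% and 11% in EMD-/y.

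The change from day 1 to day 2 differed by at least 4-fold between +EMD and wildtype for 327 of 12779 genes (2.56%), 237 (1.85%) more positive and 90 (0.704%) more negative in +EMD. Mitotic genes made up 25 of the 237, out of 40 on their list, and 2 of 47 replication genes were among them. The 8 named genes with the most positive difference were Mki67, Atp9a, Ccnb2, Ckap2l, Hmmr, Espl1, Dner, and Neil3. Of these, 6 were lower at day 2 in both lines, among them Espl1, the separase, which stood at 1586 and 434 in +EMD and at 585 and 13.2 in wildtype. Dner and Atp9a were instead higher at day 2, at 19.3-fold and 19.7-fold in +EMD and 1.71-fold and 1.51-fold in wildtype. The most negative differences were those of Amacr, Pebp1, Syt7, Fgfrl1, Cd24a, Wdr89, Btbd6, and Mapk12. The difference of Amacr depends on its wildtype value at day 2, which moved with the libraries fitted together, as given above. Pebp1, an inhibitor of Raf, was 11.8-fold higher in wildtype, from 283 to 3355, and 1.40-fold higher in +EMD, from 2610 to 3647. Cd24a, a surface protein of progenitors, was 2.92-fold lower in +EMD and 1.75-fold higher in wildtype.

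**Figure D4:**
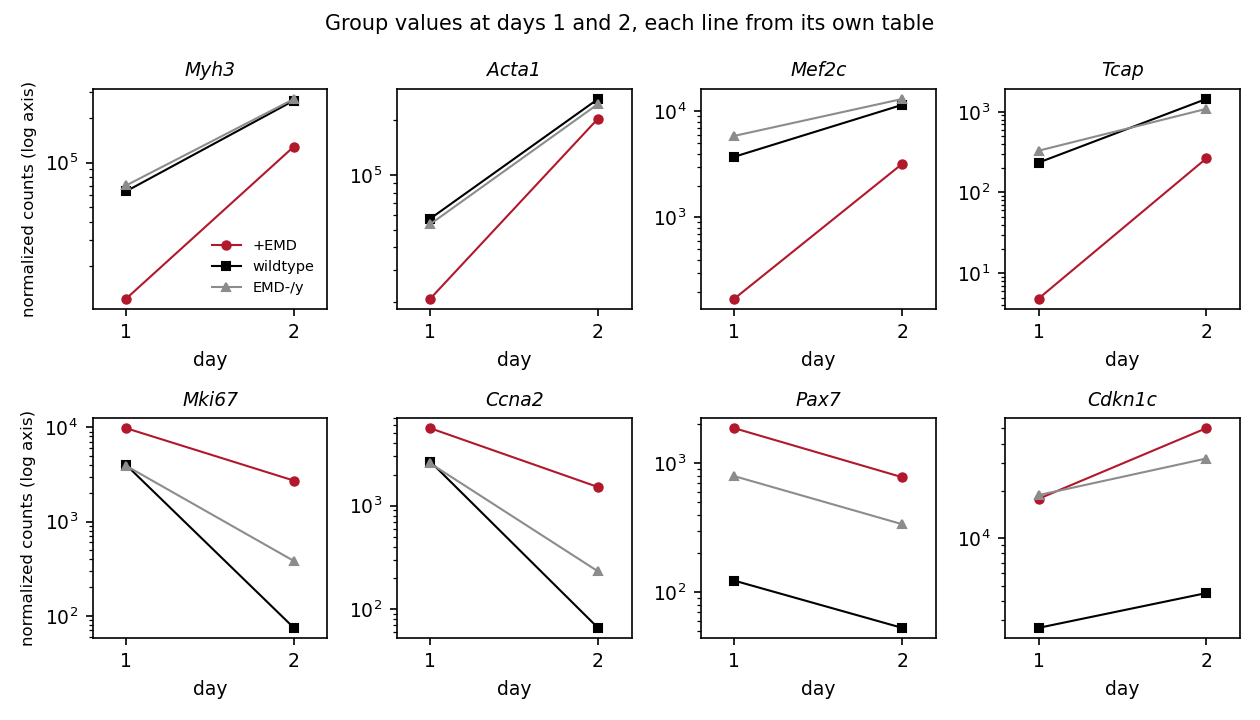
Group values of 8 genes at days 1 and 2 in normalized counts, for +EMD (circles), wildtype (squares), and EMD-/y (triangles), each line from its own table and each panel with its own log axis. The muscle genes start lower in +EMD and lie closer to the other lines at day 2, Mki67 and Ccna2 stay higher in +EMD, Pax7 is higher in +EMD on both days, and Cdkn1c lies with EMD-/y and above wildtype at day 1.

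Levels of +EMD against wildtype on each day show where these differences stood. They come from tables of wildtype and +EMD on one day, which contain the same +EMD libraries as the comparison of days. At day 1, 2649 of 13482 genes (19.6%) were past 2-fold, with 1204 (8.93%) higher and 1445 (10.7%) lower in +EMD, and at day 2, 2453 of 13359 (18.4%), with 1427 (10.7%) higher and 1026 (7.68%) lower. The sarcomere assembly list had 22 of 33 genes past 2-fold lower than wildtype at day 1 and 9 of 34 at day 2, with medians of -1.40 and -0.41. The myosin heavy chains had medians of -2.10 and -0.77. Myh3 was 5.51-fold lower than in wildtype at day 1 and 2.18-fold lower at day 2, and Acta1 2.89-fold and 1.37-fold lower. Other genes were below wildtype by more. Mef2c was 22.6-fold lower at day 1 and 3.82-fold at day 2, Cav3 30.7-fold and 7.25-fold, and Tcap 37.7-fold and 5.80-fold. Myh2 stood at 3.04 and 21.5 in +EMD and at 711 and 3686 in wildtype in these tables. Some were above wildtype by day 2, such as Myh7, 2.01-fold lower at day 1 and 2.45-fold higher at day 2, and Mstn, 2.76-fold lower and 3.75-fold higher. Actc1 was higher than in wildtype on both days, by 1.31-fold and 2.23-fold.

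**Figure D5:**
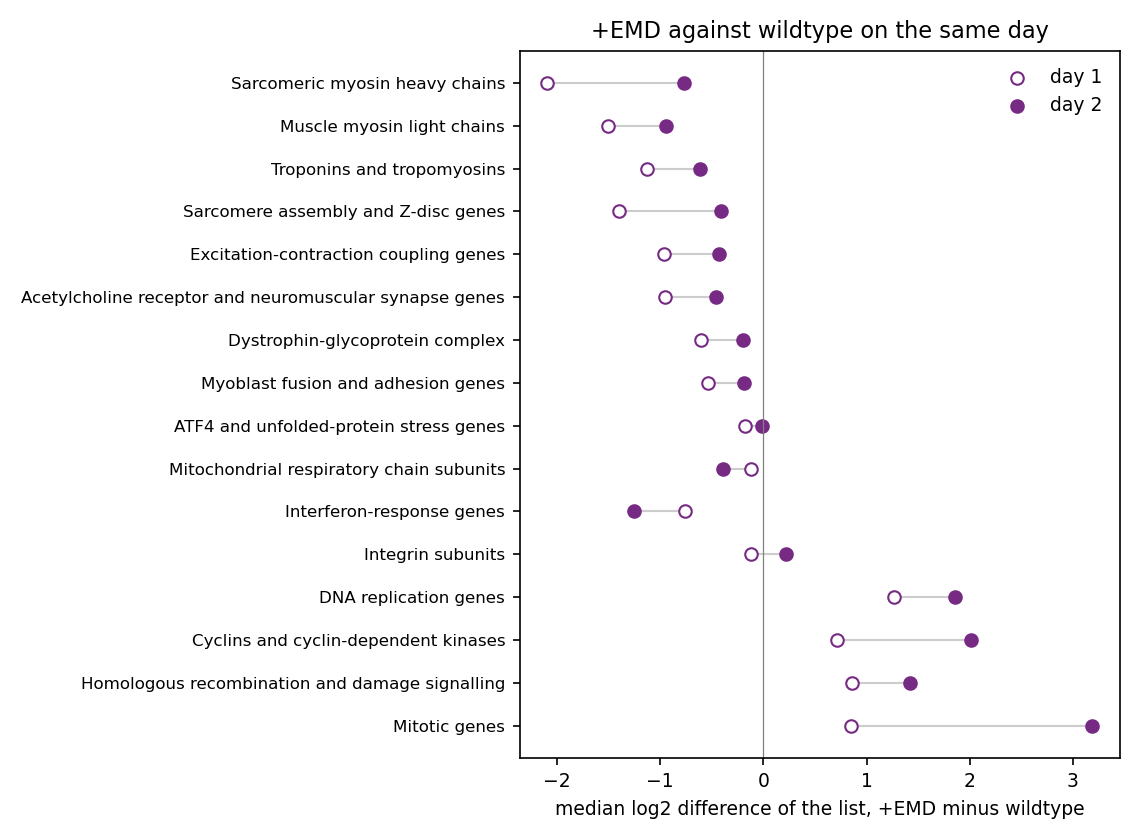
The horizontal axis gives the median log2 difference of each list between +EMD and wildtype on the same day, at day 1 (open circles) and day 2 (filled circles), over the members past the filter in the comparison of days. The contractile lists lie left of 0 and nearer to it at day 2, from -2.10 to -0.77 for the myosin heavy chains, and the mitotic genes lie right of 0 and farther at day 2, from 0.85 to 3.19.

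The mitotic and replication lists had medians above wildtype on both days. Of the mitotic genes, 9 of 40 were past 2-fold higher in +EMD at day 1 and 39 of 40 at day 2, with medians of 0.85 and 3.19. Replication genes had 29 of 47 past 2-fold higher at day 1 and 38 of 47 at day 2, with medians of 1.26 and 1.86. Mki67 was 2.32-fold higher than in wildtype at day 1 and 34.1-fold higher at day 2, and Ccna2 1.98-fold and 21.9-fold. Inhibitors of the cycle were not uniformly lower, since Cdkn1c was 6.21-fold and 10.4-fold higher than in wildtype and Cdkn1a 1.52-fold and 1.86-fold lower. Pax7 was 13.6-fold and 13.3-fold higher in +EMD, and Myf5 4.26-fold and 3.44-fold. EMD-/y also lay above wildtype in these genes, each line taken from its own comparison of days. Pax7 stood at 793 and 337 in EMD-/y and at 123 and 53.1 in wildtype. Myf5 stood at 380 and 241 and at 209 and 134. Myod1 and Myog lay within 1.34-fold of wildtype on both days. Interferon-response genes had medians of -0.76 at day 1 and -1.26 at day 2, with 14 and 19 of 29 past 2-fold lower in +EMD and none higher on either day.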

How the data were processed

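Poly-A RNA of 54 samples was sequenced as paired reads, and the 6 libraries of +EMD at days 1 and 2 are reported here, with other groups for comparison. The authors filtered reads with SOAPnuke, and the submitters' processing notes name HISAT2, DESeq2, and the mm10 build. The strand setting, the counter, and versions are not given in the sources used here. The signal values as deposited are 1 value per group and table, in normalized counts made by the authors from all libraries of both groups, and the gene length (a deposited value of another kind) is in bases. Columns of the authors' fold changes, p-values, adjusted p-values, and calls were not used. Values per sample take up 0 columns.

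The deposited values are not plain means of 3 libraries. No value was 0, since the lowest was 0.158 at day 1 and 0.140 at day 2. The average of both groups fell on 6 steps for 889 genes, 1 step for a single read in each library, and all of 1722 low averages checked were sums of at most 4 such reads within 1e-06 of their value. The split of such an average between the groups never gave 0, as means of so few reads would, and is read here as a fitted fold that draws low genes toward equal values. The log2 ratio of both values reached 1.35 in size for averages under 1 and 6.06 for averages between 10 and 50.

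Log2 differences used a pseudocount of 1. Genes with a higher value of at least 10 were kept, and a call was a fold of at least 2, or at least 4 between the changes of 2 lines. Gene IDs were named through RefSeq on GRCm38.p6, which matched 16142 of 16162 numeric IDs, and the other 1522 IDs are predicted genes. The members and the 47 gene lists were chosen with earlier results of these data known. Named genes were Emd, all MyoD-family, Mef2, and sarcomeric myosin heavy chain genes, the 3 largest and 3 smallest differences past the filter of each other list, the 10 largest and 10 smallest among named genes with a value of at least 100, the 8 most positive and 8 most negative changes against wildtype at that level, and the 10 highest values per kb at day 2. Mymk, Mymx, Hdac3, the NCoR genes, the marker Cdh15, and markers under the filter were added after their values were seen, as were the printed promoters. The promoter table held 10012 of the genes past the filter, and the first start listed for each gene was used. Some genes that this rule names are not reported here. How often the call rule errs on the deposited values was not tested. Python 3.11.15, numpy 2.4.6, pandas 2.3.3, and matplotlib 3.10.9 were used.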

Additional observations from a re-analysis of the deposited data

How the results depend on the processing

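No paired analysis was possible because the deposited tables hold 1 value per group and none per sample, although replicate numbers are shared between groups. For the same reason leaving out a replicate was not run, and the precision of every fold is unknown. Depth limits low genes most, whose folds the deposited values draw toward 1. The counts of 1463 higher and 1267 lower genes stayed within 1.5 times under pseudocounts of 0.1 and 5, without the filter, without predicted genes, centred on the median, and with values taken from the tables against wildtype. With a higher value of at least 100, 968 genes were higher, and 181 changes differed from wildtype by at least 4-fold in place of 327. With both days rescaled to the same sum, 2054 genes were lower. At 1.5-fold there were 5337 genes, 2551 higher and 2786 lower, and at 4-fold 589, 542 higher and 47 lower. Lists in which most members past the filter were past the threshold in one direction numbered 16, and 5 at 4-fold. Of 1479 values of named genes under the alternatives, 13 moved by over 1.5-fold, and 0 that were past 2-fold changed sign; Mstn, at 4.91 on the log2 scale, was at 5.83 with values from the tables against wildtype. Counts per list moved by over 1.5 times in 149 of 940 cases over all alternatives. The medians of 8 lists changed sign under rescaling to the same sum. The cause of these shifts was not tested, except that stricter thresholds and filters leave fewer genes.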
